A study of Homo sapiens with 6 samples.

Results

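The ATF4 amino acid stress program was examined as 35 genes matched by symbol in a table of 30270 human genes. ATF4 is the transcription factor whose translation goes up when the initiation factor eIF2 is phosphorylated, as happens when amino acids run short or protein folding in the endoplasmic reticulum fails. With C/EBP-family partners it switches on genes that make non-essential amino acids, feed one-carbon units into nucleotide synthesis, charge and export tRNAs, and signal stress to other cells. The response also holds its own brakes, among them TRIB3, which binds ATF4, and PPP1R15A, which restores eIF2 by dephosphorylation. Since ATF4 is controlled largely at translation, its mRNA level is not a measure of ATF4 protein.

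The cells were HEK 293T, a human embryonic kidney line that carries the SV40 large T antigen, and neither group received a treatment. The study compared wild-type (WT) cells with a double knockout of TENT3A and TENT3B, also called TUT4 and TUT7 (ΔTUT4/7), the enzymes that add uridines to RNA 3′ ends. Each group had 3 biological replicates of rRNA-depleted total RNA and was 1 cell line, so any other difference between the 2 lines cannot be told apart from the deletion. The knockout line came from another laboratory, and the number of clones in it is not given in the sources used here. Separate cultures are not described either, so p-values measure the spread between these libraries, which may be technical. In a bulk library, a lower level in every cell and a loss from some of the cells cannot be told apart either.

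Library totals lay between 18757228 and 33148937 estimated counts. TUT7 fell from 62.6 ± 2.17 to 26.3 ± 1.04 CPM (counts relative to library size, mean ± SD, n = 3), the way the label has it, whereas TUT4 went against the label and rose from 211 ± 5.08 to 906 ± 21.4 CPM. A count over a whole gene includes exons outside a deletion and does not tell intact from truncated transcripts, so directions are given here by label. Summed marker levels are relative to library totals without the scaling factors used for single genes, so the 2 kinds of value differ slightly in scale. The 7 markers of kidney lineage and HEK 293 cells had a summed level of 1366 to 1593 CPM in WT. In the libraries labelled ΔTUT4/7 their sum was 193 to 203 CPM. NEFM accounted for most of that gap, at 969 CPM in WT and 0.0170 CPM in the other group. It was nearly absent there, with 0, 0 and 1 counts. Of the 7 markers 5 were lower and 2 higher, the latter INA (2.34 to 31.4 CPM) and EYA1 (15.9 to 24.7 CPM). Of the 12 markers of blood, endothelium, liver, keratinocytes and muscle, 8 were not listed in the table, and the 4 that were summed to 1.86 to 3.81 CPM in any library. Whether the difference in lineage markers has a part in the results below was not tested.

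Most of the program was lower in the libraries labelled ΔTUT4/7. All 35 genes passed the count limit and were tested, and 26 fell, 3 rose and 6 did not pass an adjusted p under 0.05 in edgeR's quasi-likelihood test with Benjamini-Hochberg adjustment over all genes. Among all 23952 genes tested, 57.7% were called by that rule, 29.0% as lower and 28.6% as higher. The median log2 fold change of the 35 genes was -0.59, against -0.02 for all genes tested. A fall of at least 2-fold was called for 12 of the 35, against 12.4% of all genes, and a rise of that size for ALDH18A1 alone, against 5.9%. All 3 libraries labelled ΔTUT4/7 lay below all 3 WT libraries for 26 of the 35 genes, against 31.8% of all genes, and above them for 3, against 30.9%. The 4 genes ADM2, NUPR1, INHBE and GDF15 passed the count limit of 12 only through WT, where they are high, so they had to differ to be tested. Over genes above that limit in both groups, 22 of 31 program genes were lower, against 27.8% of 20849 genes, 8 were at least 2-fold lower, against 8.64%, and the median was -0.40.

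**Figure D1:**
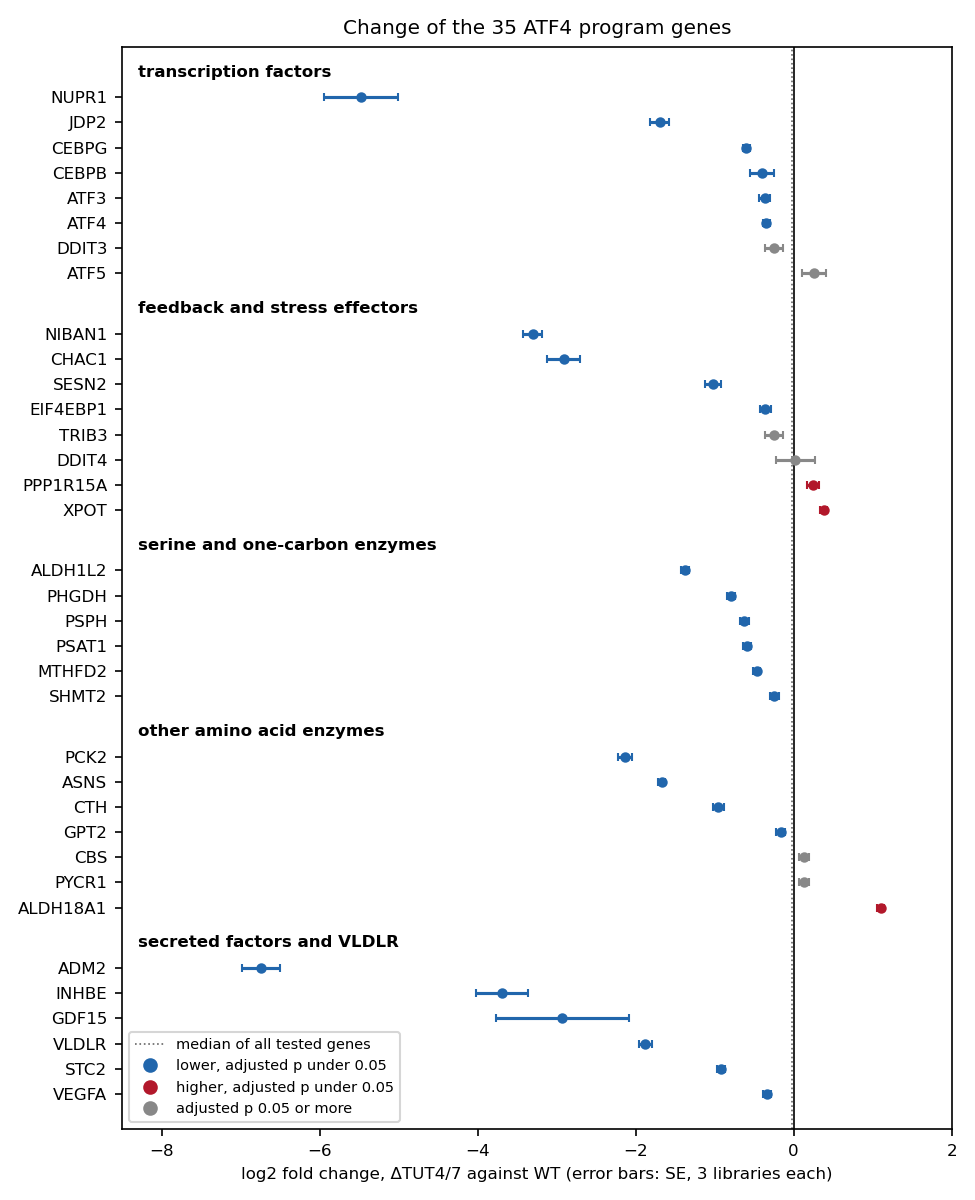
Log2 fold change of the 35 program genes, libraries labelled ΔTUT4/7 against WT (x axis), by role; points are edgeR estimates, bars are SE over 3 libraries per group and colour gives the call at an adjusted p under 0.05. The 26 blue genes fell, from -0.16 for GPT2 to -6.75 for ADM2, and the 3 red genes PPP1R15A, XPOT and ALDH18A1 rose.

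The same counts were taken over genes of higher mean count. That mean spans both groups, so ADM2 is still among them, with 4, 2 and 2 counts in the libraries labelled ΔTUT4/7. At mean counts of at least 50, 23 of 32 program genes were lower, against 31.7% of the 15575 genes of that depth, 3 were higher, against 39.2%, and 9 were at least 2-fold lower, against 8.26%. Levels were also taken per kilobase of exon, with the exons of all transcripts of a gene merged. That length can exceed the length of the transcripts in use, so ranks between genes are approximate. By this measure ATF4 itself ranked first of the 35 in WT at 230 CPM per kb. PSAT1 (162), ASNS (85.6) and EIF4EBP1 (76.2) came next. The lowest were INHBE (1.01), NUPR1 (0.498) and GDF15 (0.214).

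Of the 10 program genes under 5 CPM per kb in WT, 7 were at least 2-fold lower and the median log2 fold change was -2.40, while 17.1% of all genes in that class were at least 2-fold lower. Since 4 of these 7 passed the count limit only through WT, the comparable counts over genes above it in both groups were 3 of 6, with a median of -1.05, and 12.4% of all such genes. In the class of 5 to under 25 CPM per kb it was 2 of 9 genes (4.21% of all genes), and at 25 or more it was 3 of 16 (2.79% of all genes). The median of the last class was -0.53 for the program genes and 0.18 for all genes of that level.

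**Figure D2:**
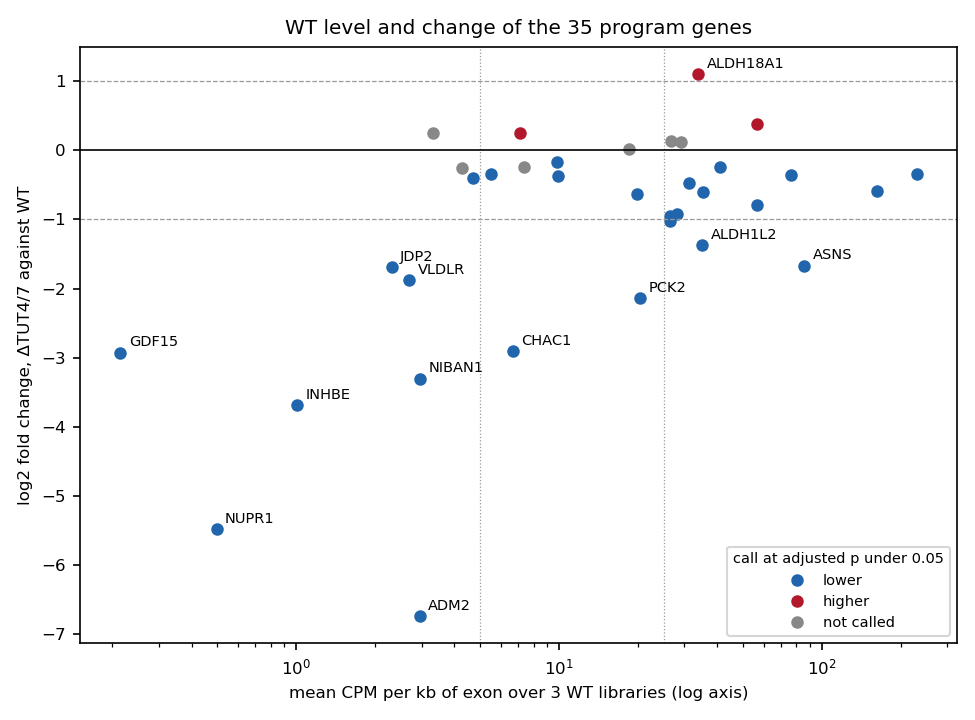
Mean WT level per kilobase of exon (x axis, log scale) against log2 fold change (y axis) for the 35 program genes; dotted lines mark 5 and 25 CPM per kb and dashed lines a 2-fold change. ADM2, NUPR1 and INHBE sit at the lower left, ASNS and ALDH1L2 are the most abundant genes past the 2-fold line, and ALDH18A1 is the one gene above it.

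ATF4 binds its targets with C/EBP proteins at a composite element, the C/EBP-ATF response element, whose core was searched here as TGATGNAA on both strands. The windows ran from 250 bases before to 50 after each RefSeq transcription start (GRCh38.p14), and 26 of the 35 genes had 40 such windows. Those of EIF4EBP1, PSPH, INHBE, ALDH1L2, GPT2, NUPR1, VEGFA, SHMT2 and PYCR1 are not shown. A match was held by 5 genes, each in 1 window (5 of 40 windows, 12.5%), against 3.62% of all 35116 windows and 2.19% of those of genes tested here. Their stretches of 30 bases are given because they are the matches found in the windows of these 26 genes, each read 5′ to 3′ along the gene's own strand with the core in capitals.
ASNS, minus strand, chr7:97872458-97872487: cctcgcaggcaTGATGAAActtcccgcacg
CEBPG, plus strand, chr19:33374060-33374089: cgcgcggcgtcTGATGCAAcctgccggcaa
JDP2, plus strand, chr14:75427995-75428024: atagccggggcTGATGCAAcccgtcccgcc
ATF3, plus strand, chr1:212565205-212565234: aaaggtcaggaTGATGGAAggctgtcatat
CHAC1, plus strand, chr15:40953251-40953280: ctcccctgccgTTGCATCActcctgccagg
The core began 68 bases before the start site in ASNS, 42 in CEBPG, 16 in JDP2, 191 in ATF3 and 209 in CHAC1, where it reads on the opposite strand. All 5 genes fell, with log2 fold changes of -1.67, -0.60, -1.69, -0.37 and -2.91 in that order. Most of the program fell as well, with 26 of the 35 genes called lower, against 29.0% of all genes tested. Whether a match goes with the fall was not tested. A match of 8 letters is a description of the sequence and does not show binding, and a window without one may hold other forms of the element.

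Of the 8 transcription factors, 6 fell, against 29.0% of all genes tested, and 2 did not pass the test, with a median log2 fold change of -0.38. ATF4 (chromosome 22, 39519672 to 39522683, plus strand) had 616, 594 and 595 CPM in the WT libraries and 471, 478 and 471 CPM in those labelled ΔTUT4/7. The groups did not overlap, and the fall was small: a log2 fold change of -0.35 ± 0.04 (SE), which is 21.3% less, at an edgeR adjusted p of 2.65e-07. Neighbouring genes were lower too. The 134 expressed genes within 5 Mb of ATF4 had a median of -0.25, and the value of ATF4 relative to them was -0.10.

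The partner and target factors of ATF4 covered a wide range. CEBPG, a C/EBP protein that pairs with ATF4, had 143, 144 and 141 CPM in WT and 97.0, 92.7 and 92.8 CPM in the libraries labelled ΔTUT4/7, a log2 fold change of -0.60 ± 0.05 (edgeR adjusted p 2.75e-10). JDP2, a repressor of the AP-1 family, fell further, from 15.9, 13.2 and 14.3 CPM to 4.43, 4.54 and 4.39 CPM (log2 fold change -1.69 ± 0.12). In both genes the 3 libraries labelled ΔTUT4/7 lay close together and well under WT.

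NUPR1, a small stress-induced chromatin protein, was nearly lost. It had 47, 61 and 107 counts in WT and 0, 2 and 2 counts in the libraries labelled ΔTUT4/7, with a log2 fold change of -5.48 ± 0.47 (edgeR adjusted p 2.06e-09). AC020765.6, a gene on the same strand that overlaps NUPR1, fell as well (-4.58), so the division of reads between the pair is uncertain.

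ATF3 fell by 0.37 ± 0.07 on the log2 scale, from 42.5, 37.9 and 38.2 CPM to 30.4, 29.95 and 31.6 CPM. It is a stress-induced partner and repressor in the same network. CEBPB changed by -0.40 ± 0.15 (edgeR adjusted p 0.0288) with overlapping groups, at 7.13, 8.96 and 9.98 CPM in WT and 5.87, 8.25 and 5.92 CPM in the other group. Without WT replicate 2 or 3, or without any 1 of the libraries labelled ΔTUT4/7 other than replicate 2, its adjusted p was 0.0737 to 0.148, and DESeq2 gave 0.0623.

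DDIT3, which encodes the pro-apoptotic factor CHOP, did not pass the test. It had 9.98, 9.69 and 9.23 CPM in WT and 8.46, 8.45 and 7.36 CPM in the libraries labelled ΔTUT4/7, with a log2 fold change of -0.25 ± 0.11 (edgeR adjusted p 0.0664), although the groups did not overlap. It was called lower under library-size and upper-quartile scaling and with the mean count limit (adjusted p 0.0094 to 0.0179). ATF5, another factor translated under eIF2 phosphorylation, ran from 8.15 to 11.5 CPM in WT and from 9.30 to 14.0 CPM in the other group (0.26 ± 0.15, edgeR adjusted p 0.170), and was called higher without WT replicate 3 (0.0266) or replicate 3 of those labelled ΔTUT4/7 (0.0285). Both lie on the opposite strand of a gene with more reads, DDIT3 of MARS1 and ATF5 of NUP62. Whether counting used strand is not given in the sources used here, so their counts are uncertain.

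Of the 8 feedback and stress effectors, 4 were lower, 2 higher and 2 did not pass (median log2 fold change -0.30). Among all genes tested 29.0% were lower and 28.6% higher, so the count of higher genes is near that share. CHAC1, an enzyme that degrades glutathione, had 18.1, 12.2 and 10.9 CPM in WT and 2.03, 1.65 and 1.63 CPM in the libraries labelled ΔTUT4/7. NIBAN1, a stress-induced protein also called FAM129A, had 23.2, 24.6 and 26.3 CPM in WT and 2.59, 2.01 and 2.86 CPM in the other group. These were the largest falls of the group, with log2 fold changes of -2.91 ± 0.21 for CHAC1 (edgeR adjusted p 4.26e-08) and -3.30 ± 0.12 for NIBAN1 (2.53e-15).

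SESN2, a leucine-binding inhibitor of mTORC1, had 106, 84.1 and 85.7 CPM in WT and 46.5, 40.7 and 48.4 CPM in the libraries labelled ΔTUT4/7. That is 2.02-fold lower, at the 2-fold limit. Its log2 fold change was -0.91 without WT replicate 1 and -0.95 without replicate 2 of those labelled ΔTUT4/7, both short of that limit. EIF4EBP1, the repressor of cap-dependent translation 4E-BP1, fell less, by 0.36 ± 0.07 on the log2 scale. PPP1R15A and XPOT went the other way. XPOT, the exporter of tRNAs from the nucleus, had 421, 419 and 401 CPM in WT and 529, 552 and 533 CPM in the libraries labelled ΔTUT4/7, a log2 fold change of 0.38 ± 0.04 (edgeR adjusted p 9.97e-08). The median of its expressed neighbours was 0.27, and relative to them XPOT was at 0.11. PPP1R15A, also called GADD34, moved from 25.05, 22.96 and 25.11 to 30.1, 29.4 and 27.1 CPM (0.25 ± 0.07, edgeR adjusted p 0.0063). That call was lost when libraries were scaled by total alone or by the upper quartile (adjusted p 0.132 and 0.0900), and the value was -0.011 relative to neighbouring genes.

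TRIB3 and DDIT4 did not pass with all libraries and TMM scaling. TRIB3 had 14.0, 14.8 and 13.3 CPM in WT and 11.5, 10.0 and 14.0 CPM in the libraries labelled ΔTUT4/7 (log2 fold change -0.25 ± 0.11, edgeR adjusted p 0.0639). It was called lower under library-size scaling (0.00967), upper-quartile scaling (0.0106) and the mean count limit (0.0174), and without WT replicate 3 (0.0487) or replicate 3 of those labelled ΔTUT4/7 (0.00884). DDIT4, or REDD1, an inhibitor of mTORC1, had 52.8, 34.2 and 30.6 CPM in WT, so its spread there was wider than any difference from the 42.2, 35.4 and 40.2 CPM of the other group. Leaving out WT replicate 1 gave a call of higher, with 0.28 on the log2 scale (edgeR adjusted p 0.00768), against 0.02 ± 0.25 with all libraries. WT replicate 1 was the highest WT library for 19 of the 35 genes, and replicate 1 of the other group was the highest there for 18. The share over all genes was not counted.

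**Figure D3:**
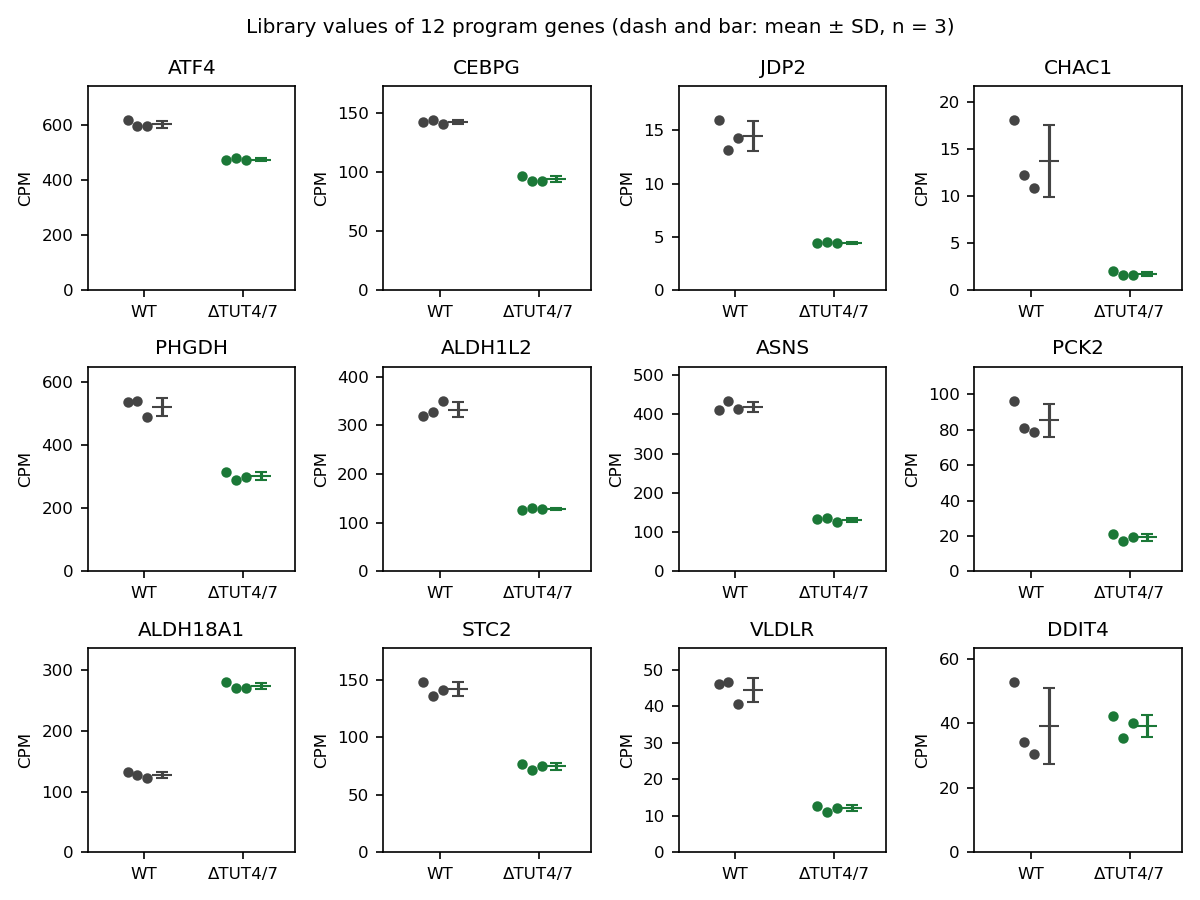
CPM in each library for 12 program genes, WT in grey and libraries labelled ΔTUT4/7 in green, with mean and SD (n = 3) beside the points; every y axis starts at 0. The groups are apart for 11 genes, with ALDH18A1 the one that is higher, and for DDIT4 they overlap, with WT replicate 1 highest at 52.8 CPM.

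All 6 serine and one-carbon enzymes fell, against 29.0% of all genes tested, with a median log2 fold change of -0.61. PHGDH, PSAT1 and PSPH carry out the successive steps that turn a glycolytic intermediate into serine. PHGDH (chromosome 1, 119648411 to 119744218), the first of them, had 537, 539 and 488 CPM in WT and 316, 290 and 299 CPM in the libraries labelled ΔTUT4/7. PSAT1 had 342, 381 and 350 CPM against 234, 248 and 229 CPM, and PSPH 55.0, 53.7 and 55.0 CPM against 35.7, 35.9 and 34.5 CPM. The 3 changes were of like size, -42.1%, -33.7% and -35.2%, with log2 fold changes of -0.79 ± 0.05, -0.59 ± 0.05 and -0.63 ± 0.06. Summing PSAT1 with its 3 pseudogenes in the table left its log2 ratio at -0.60.

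SHMT2, MTHFD2 and ALDH1L2 are the mitochondrial enzymes that pass the serine carbon to folate and on to formate or carbon dioxide. ALDH1L2 (chromosome 12, 105019784 to 105107643, minus strand) fell most, from 319, 328 and 350 CPM to 127, 130 and 128 CPM, a log2 fold change of -1.37 ± 0.05 (edgeR adjusted p 5.84e-16). Its locus overlaps WASHC4 and C12orf45 on the other strand, which rose by 0.13 and 0.31. MTHFD2 had 363, 362 and 351 CPM in WT and 252, 268 and 257 CPM in the libraries labelled ΔTUT4/7 (-0.47 ± 0.04), and SHMT2 209, 176 and 179 CPM against 164, 153 and 157 CPM (-0.25 ± 0.06). SHMT2 thus changed least, and its closest libraries were 176 CPM in WT and 164 CPM in the other group.

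Of the other 7 amino acid enzymes, 4 fell, 1 rose and 2 did not pass, against 29.0% lower and 28.6% higher among all genes tested. ASNS (chromosome 7, 97851677 to 97872542, minus strand), asparagine synthetase and a classical ATF4 target, had 410, 433 and 414 CPM in WT and 133, 136 and 126 CPM in the libraries labelled ΔTUT4/7. It was 3.18-fold lower, a log2 fold change of -1.67 ± 0.05 at an edgeR adjusted p of 2.63e-17, the smallest of the 35 genes. PCK2 (chromosome 14, 24094053 to 24110598), the mitochondrial enzyme that makes phosphoenolpyruvate from oxaloacetate, fell from 96.2, 81.0 and 78.5 CPM to 21.2, 17.2 and 19.2 CPM, which is 4.40-fold lower. CTH, which releases cysteine from cystathionine, fell 1.94-fold, from 67.5, 66.0 and 57.3 CPM to 30.5, 32.7 and 35.3 CPM.

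CBS, the step before CTH, did not follow it. It had 209, 179 and 206 CPM in WT and 230, 205 and 213 CPM in the libraries labelled ΔTUT4/7 (0.13 ± 0.06, edgeR adjusted p 0.0753). Reads may be shared with CBSL, a near-identical copy in the same genome build. The sum of both was 285 ± 27.9 CPM (SD, n = 3) in WT and 310 ± 17.8 CPM in the other group, with a two-sided exact permutation p of 0.3 where 3 against 3 allows no less than 0.1. GPT2, a mitochondrial alanine transaminase, changed by -0.16 ± 0.06 (edgeR adjusted p 0.0216), a call lost without WT replicate 1 (0.0839) or replicate 2 of those labelled ΔTUT4/7 (0.112).

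ALDH18A1 (chromosome 10, 95605941 to 95656711, minus strand) rose the most of the 35 genes. It encodes the enzyme that turns glutamate into the precursor of proline. It had 132, 127 and 123 CPM in WT and 280, 270 and 271 CPM in the libraries labelled ΔTUT4/7, 2.15-fold higher, with a log2 fold change of 1.10 ± 0.04 (edgeR adjusted p 1.16e-14). The 73 expressed genes within 5 Mb had a median of 0.42, and relative to them ALDH18A1 was at 0.69. PYCR1, which completes proline synthesis, had 85.3, 72.1 and 72.6 CPM in WT and 88.0, 77.7 and 85.2 CPM in the other group (0.13 ± 0.07, edgeR adjusted p 0.102).

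The 5 secreted factors and the surface receptor VLDLR all fell, against 29.0% of all genes tested, with a median log2 fold change of -2.40. This median was -1.40 over the 4 with a mean count of at least 50, ADM2 among them, and -0.92 over the 3 above the count limit in both groups. It was -1.84 without WT replicate 2 and -3.10 without replicate 1 of those labelled ΔTUT4/7. ADM2 (chromosome 22, 50481543 to 50486440), a peptide hormone of the calcitonin family, changed most of the 35 genes. It had 285, 298 and 369 counts in WT and 4, 2 and 2 counts in the libraries labelled ΔTUT4/7, a log2 fold change of -6.75 ± 0.24 (edgeR adjusted p 1.45e-15). INHBE, which encodes an activin subunit, had 50, 79 and 112 counts against 11, 2 and 4 (-3.69 ± 0.33, edgeR adjusted p 2.89e-09).

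GDF15, a stress cytokine, was at the edge of detection. It had 7, 18 and 9 counts in WT and 4, 0 and 0 in the libraries labelled ΔTUT4/7, and its log2 fold change of -2.93 ± 0.84 (edgeR adjusted p 0.00509) is correspondingly loose. It was -6.38 without replicate 1 of the libraries labelled ΔTUT4/7, and without WT replicate 2, the one library above the count limit, the gene was not tested. STC2, a secreted glycoprotein that inhibits the protease PAPP-A, was well measured, at 148, 136 and 141 CPM in WT and 77.3, 71.3 and 75.4 CPM in the libraries labelled ΔTUT4/7 (-0.92 ± 0.05). VLDLR, the very low density lipoprotein receptor, fell 3.67-fold, from 46.2, 46.6 and 40.7 CPM to 12.8, 11.1 and 12.3 CPM. VLDLR-AS1, which overlaps it on the opposite strand and has 244 counts in all against 4233, fell as well (-3.69). VEGFA, an angiogenic factor that also responds to low oxygen, fell by 0.34 ± 0.05 on the log2 scale.

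Program genes that lie close together differed in the size of their change. SHMT2, INHBE and DDIT3 start at 57229573, 57452323 and 57516588 on chromosome 12, yet their log2 fold changes were -0.25, -3.69 and -0.25, while the median of the expressed genes within 5 Mb was 0.21 to 0.22 for each. Over the 35 genes, the medians of such neighbours reached at most 0.42 in size. All 26 genes called lower were still negative after the neighbours' median was subtracted. Where that median was positive, this outcome was fixed, since subtraction could only deepen the fall. The genes called lower that could have changed sign were ATF4, ATF3, EIF4EBP1, NIBAN1, PHGDH, PCK2, ADM2 and VLDLR.

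Genes of the same pathway outside the 35 are given here as called counts, to be read against the 29.0% lower and 28.6% higher among all genes tested. Of 17 genes for the eIF2 kinases, eIF2, its exchange factor eIF2B and their regulators, 9 rose, 4 fell and 4 did not pass (median log2 fold change 0.13). EIF2B1, a subunit of eIF2B, and GCN1, the ribosome-bound activator of the amino acid sensor GCN2, rose by 1.17 ± 0.05 and 1.15 ± 0.05. IMPACT, which inhibits that activation, and DELE1, which relays mitochondrial stress, had log2 fold changes of -0.41 ± 0.06 and -0.36 ± 0.07. The expressed genes within 5 Mb of EIF2B1 and GCN1 were higher too, with medians of 0.78 and 0.79. Relative to such neighbours EIF2B1 and GCN1 were at 0.38 and 0.37, and IMPACT and DELE1 at -0.46 and -0.47, values with no test. The 4 kinases, named after their values were seen, changed little, with 0.13 for EIF2AK1 and 0.21 for EIF2AK2, both called higher, and -0.061 and -0.00027 for EIF2AK3 and EIF2AK4, which did not pass. An mRNA level does not show kinase activity.

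Among 12 cytosolic aminoacyl-tRNA synthetases, 8 fell and 2 rose, with SARS1 (-0.83 ± 0.04) and CARS1 (-0.73 ± 0.06) the falls of smallest p, and TARS1 (0.46 ± 0.04) and YARS1 (0.13 ± 0.04) the rises. Relative to neighbouring genes SARS1 and CARS1 were at -0.79 and -0.94, TARS1 at 0.20 and YARS1 at -0.28. Among 9 amino acid transporters, 5 fell and 1 rose. SLC7A11, the cystine importer, and SLC6A9, a glycine transporter, fell, with log2 fold changes of -1.47 ± 0.05 and -2.46 ± 0.11, and SLC3A2, the partner subunit of SLC7A11, rose by 0.16 ± 0.05. Relative to neighbouring genes SLC7A11 and SLC6A9 were at -1.39 and -2.57, and SLC3A2 at -0.017.

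**Figure D4:**
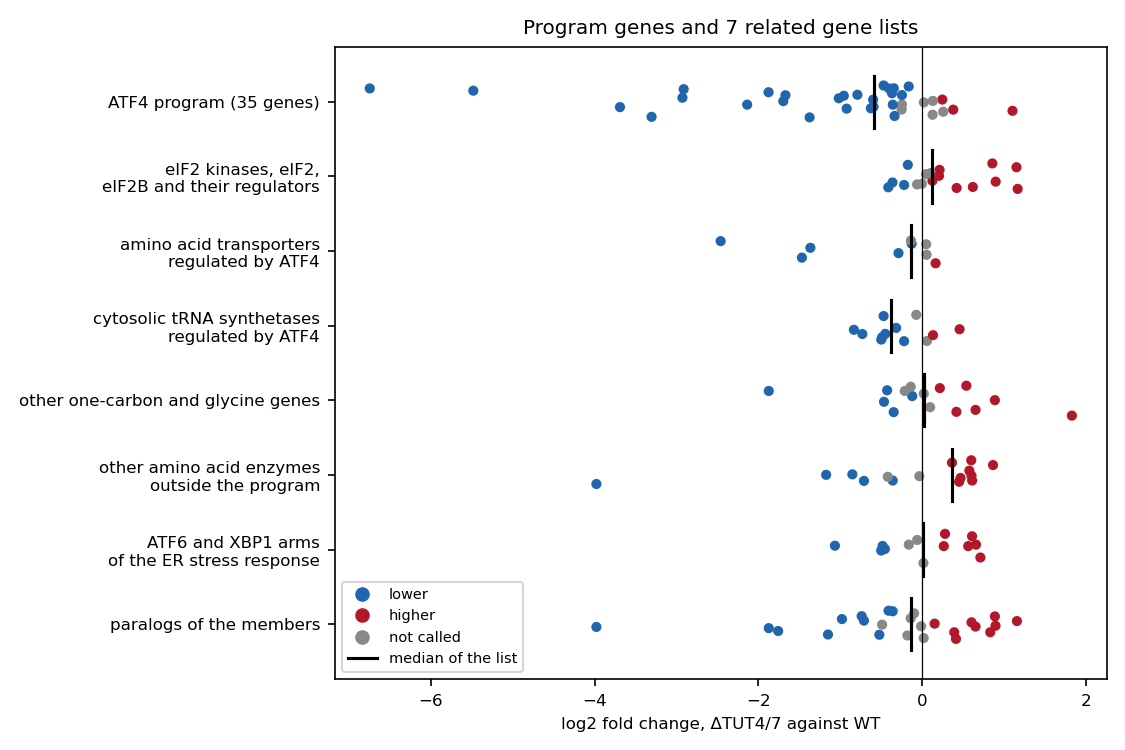
Log2 fold change of the 35 program genes and of 7 related lists (rows); each point is a gene coloured by its call at an adjusted p under 0.05, spread vertically at random within a row, and black bars are list medians. The program has the lowest median (-0.59), followed by the tRNA synthetases (-0.38), and the list of other amino acid enzymes the highest (0.37). Over the 31 program genes above the count limit in both groups, the program's median was -0.40, close to that of the tRNA synthetases.

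Enzymes next to the program in the same pathways are listed next. In the list of 15 further one-carbon and glycine genes, 6 rose and 5 fell (median 0.02), against 28.6% and 29.0% of all genes. GLDC, the decarboxylase of the glycine cleavage system, rose from 16.7 ± 0.615 to 59.4 ± 2.48 CPM (log2 fold change 1.83 ± 0.07), and SLC25A32, the mitochondrial folate carrier, rose by 0.89 ± 0.06. SHMT1, the cytosolic counterpart of SHMT2, rose by 0.65 ± 0.06 where SHMT2 fell by 0.25. MTR, methionine synthase, fell (-0.46 ± 0.04). Relative to neighbouring genes MTR was at 0.031, while GLDC, SLC25A32 and SHMT1 were at 2.03, 0.84 and 0.41. Of 15 other amino acid enzymes, 8 rose and 5 fell. OAT, which makes the same proline precursor as ALDH18A1 but from ornithine, rose by 0.87 ± 0.05 and GLUL, glutamine synthetase, by 0.61 ± 0.04, whereas BCAT1 and ASS1 fell (-0.85 ± 0.05 and -1.17 ± 0.08).

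For the arms of the endoplasmic reticulum stress response that run through ATF6 and XBP1, 6 of 13 genes were higher and 4 lower, against 28.6% and 29.0% of all genes. PDIA4 and HYOU1, a disulfide isomerase and a chaperone, rose by 0.56 ± 0.04 and 0.61 ± 0.05, while XBP1 and SEL1L fell (-1.06 ± 0.05 and -0.45 ± 0.05). Relative to neighbouring genes PDIA4 was at 0.0012, HYOU1 at 0.60, XBP1 at -0.87 and SEL1L at -0.69. Among 25 tested paralogs of the program genes, 9 rose and 10 fell, shares not far above those of all genes. CHAC2 (0.39 ± 0.10), NIBAN2 (0.89 ± 0.07) and LRP8 (1.16 ± 0.05) rose where CHAC1, NIBAN1 and VLDLR had fallen, and ATF1 rose by 0.90 ± 0.06. SESN1 and SESN3 fell with SESN2 (-1.15 ± 0.06 and -0.52 ± 0.05), and PCK1, at 1.17 CPM in WT, fell with PCK2 (-3.98 ± 0.57). PYCR3 rose by 0.60 ± 0.08. The differences between paralogs were not tested as such.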

How the data were processed

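Total RNA was sequenced as paired ends by the authors, who aligned reads with STAR 2.7.3a to hg38 and quantified Ensembl release 102 genes in Partek Flow 10.0.22. The deposited table holds estimated counts from its expectation-maximisation model, which share reads between overlapping or similar genes. A second table of the authors' own comparison (p-value, FDR, ratio, fold change and least-squares mean) was not used.

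Estimated counts were rounded and genes with a largest count above 12 were tested (23952 of 30270). edgeR 4.0.16 under R 4.3.3 was used with TMM factors, robust quasi-likelihood fits and group as the only term. CPM is relative to the TMM-scaled library, except for the summed marker levels, which use unscaled totals. SE comes from the quasi-likelihood F statistic. On simulated data of 22993 genes with the same groups, 96% of 100 genes changed 2-fold (log2 size of 1) were recovered. In it 0.154% of unchanged genes were called. Few genes were changed there, all with a mean count of at least 50, whereas 57.7% of genes were called in the data. The simulated rates are therefore not error rates of the calls reported here, and recovery was not measured for genes of low count. No 2 libraries of a group agreed within sampling noise (chi-square per degree of freedom 2.41 to 10.1). Coordinates are those of the table (hg38), with 1 base taken off the end. Exon lengths are those of the merged exons of all transcripts of a gene in GENCODE release 44, and promoters came from RefSeq.

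The 35 genes, the related lists and the tests were chosen with earlier results of these data known. The text names all 35 genes, TUT4 and TUT7, the 2 genes of smallest p in each direction per related list, and paralogs of described genes, and some results that this rule covers are not reported here. The limits of 5 and 25 CPM per kb were set after the levels were seen. The alternatives were other scalings, DESeq2 1.42.0, limma-voom (limma 3.58.1), other count filters, a term for the replicate number, omission of each library in turn, subtraction of neighbouring genes and, chosen after seeing the data, a count limit met in both groups.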

Additional observations from a re-analysis of the deposited data

How the results depend on the processing

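Of the 29 calls, 26 were the same in every one of the 14 refits that tested the gene, and the exceptions were CEBPB, GPT2 and PPP1R15A. Library size alone and upper-quartile scaling moved the median of all genes from -0.02 to -0.13 and -0.12 and that of the program from -0.59 to -0.71 and -0.69. Each gave 14 program genes at least 2-fold lower, against 12 in the main fit. When only genes with a mean count of at least 50 were tested, the program's median was -0.50 over 32 genes. Over the 31 genes above the count limit in both groups, an alternative chosen after seeing the data, it was -0.40, with 22 genes lower, 3 higher and 8 at least 2-fold lower. Leaving out 1 library gave medians of -0.61 to -0.51, with 24 to 26 genes lower, 11 to 13 at least 2-fold lower and 3 to 6 higher. The 6 came without WT replicate 1, where DDIT4 (0.28), CBS and PYCR1 were also called higher, and without replicate 2 of the libraries labelled ΔTUT4/7 it was 5. DDIT4, at 0.02 with all libraries, changed sign to -0.094 and -0.077 under these scalings, -0.040 with the mean count limit, and -0.14, -0.062 and -0.037 with WT replicate 3, WT replicate 2 or replicate 1 of the other group left out. Relative to neighbouring genes, DDIT4 was at -0.29, PPP1R15A at -0.011, CBS at -0.29 and PYCR1 at -0.13, values with no test. With the replicate number as a block, 26 genes were lower and 5 higher, the added calls being CBS and PYCR1. The numbers did not pair the samples, since same-numbered libraries had deviations correlated at 0.05, -0.01 and -0.02. The causes of these shifts were not tested. Depth limits GDF15 most, at 34 counts in WT in all and 4 in the other group.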
